A study of Monodelphis domestica with 6 samples.

Results

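Levels of 10 skeletal muscle genes were followed in RNASeq libraries of neonatal skin fibroblasts (neoSFs) and induced pluripotent stem cells (monoiPSCs) of *M. domestica*, the gray short-tailed opossum. The genes were selected on their level in the LSD1 monoiPSC library at passage 25 (LSD1-P25), compared with the other 3 monoiPSC libraries and the 2 neoSF libraries, so that comparison is given as a description without a test. Of the 10 genes, 7 had values among the 35665 genes measured: *MYOG*, *MYOD1*, *MYF5*, *ACTA1*, *ACTC1*, *TNNC1* and *DES*. *TTN*, *CKM* and *MYH3* were not found under these symbols and are not analysed here.

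The neoSFs were grown from back skin of 10-day-old female pups of the inbred strains FD2M1 and LSD1, 1 library per strain, and the skin was lifted off the muscle before it was cut. The monoiPSCs were made from these neoSFs with episomal plasmids encoding human *OCT4*, *SOX2*, *NANOG*, *KLF4*, *LIN28* and *cMYC*, a dominant-negative p53 and EBNA1, and were sequenced at passage 15 and passage 25, 1 library per strain and passage, called FD2M1-P15, FD2M1-P25, LSD1-P15 and LSD1-P25 here. All libraries are of the wild type genotype, the neoSFs had no treatment, and reprogramming is the only treatment named for the monoiPSCs. The labels do not say whether both passages of a strain are the same clone, so the 4 monoiPSC libraries come from 2 strains and are not 4 independent lines, and p-values measure the spread between these libraries only. Library totals were 14278794 counts for the FD2M1 and 16982978 for the LSD1 neoSFs, and 28684754 to 35564261 for the monoiPSCs. The neoSF libraries were read with short single-end reads and the monoiPSC libraries with longer paired-end reads, so cell type and sequencing run cannot be told apart.

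Skeletal muscle is built from progenitors in which the transcription factors MYF5 and MYOD1 set the lineage and MYOG starts terminal differentiation. Differentiating cells then turn on the contractile genes: actins, troponins and tropomyosins of the thin filament, myosins and their partners of the thick filament, and proteins such as desmin that tie the filaments together. They also build the acetylcholine receptor at the surface and the channels and pumps that release and store calcium. Fibroblasts and pluripotent cells are not known for this program, although fibroblasts share some cytoskeletal genes with muscle.

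Levels are given as normalized read counts (NRC), which are counts multiplied by a factor for each library and are not corrected for gene length, so they compare libraries and not genes. The marker genes of both cell types went with the labels. The 8 pluripotency genes with values summed to an NRC of 11123 to 16260 in the monoiPSCs and 115 to 175 in the neoSFs, and the 13 fibroblast genes to 8550 to 15109 in the monoiPSCs and 1817260 to 1950130 in the neoSFs. Within the monoiPSCs the LSD1-P25 library had the lowest pluripotency sum, with *LIN28A* at 1840 against 3597 to 5391 in the other 3, while *NANOG* and *POU5F1* were highest there (1456 and 299.8). In bulk RNA, fewer cells of a type and less RNA per cell cannot be told apart.

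*MYOG* (gene 100012314, chromosome 2 of MonDom5) was abundant in every monoiPSC library. The library values were 1527 (FD2M1-P15), 985 (FD2M1-P25), 4135 (LSD1-P15) and 5549 (LSD1-P25). In the neoSFs it was 206 in FD2M1 and 22.2 in LSD1. The 4 monoiPSC libraries thus lay above both neoSF libraries, LSD1 lay above FD2M1 among the monoiPSCs and below it among the neoSFs, and the 95% counting intervals of neighbouring levels did not overlap. The LSD1-P25 level was 1.34-fold that of LSD1-P15, the smallest excess of the 6 genes that were highest in this library.

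*MYOD1* (gene 100028550, chromosome 5) had an NRC of 591 in LSD1-P25. The other monoiPSC libraries had 103 (FD2M1-P15), 99.4 (LSD1-P15) and 35.1 (FD2M1-P25), and the neoSFs had 92.0 (FD2M1) and 14.3 (LSD1). LSD1-P25 was 5.73-fold above the next monoiPSC library, whereas FD2M1 neoSF, LSD1-P15 and FD2M1-P15 could not be ordered within counting error. *MYF5* (gene 100013522, chromosome 8) stayed near the detection limit throughout. Its counts were 16 (FD2M1-P15), 9 (FD2M1-P25), 6 (LSD1-P15), 2 (LSD1-P25), 0 (FD2M1 neoSF) and 1 (LSD1 neoSF). *MYF5* was thus not among the genes that were high in LSD1-P25, and the intervals of all neighbouring levels overlapped.

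Skeletal muscle alpha actin, *ACTA1* (gene 100022118, chromosome 2), had an NRC of 9645 in LSD1-P25. Below it came 1765 (LSD1-P15), 1118 (FD2M1-P15), 754 (FD2M1-P25), 621 (FD2M1 neoSF) and 104 (LSD1 neoSF). No neighbouring levels overlapped within counting error, and LSD1-P25 was 5.46-fold above the next library. *TNNC1* (gene 100020553, chromosome 6), the calcium-binding troponin of slow skeletal and cardiac muscle, had an NRC of 4034 in LSD1-P25. The remaining levels were 959 (LSD1-P15), 672 (FD2M1 neoSF), 567 (FD2M1-P15), 542 (FD2M1-P25) and 115 (LSD1 neoSF). The excess of LSD1-P25 was 4.21-fold, and the FD2M1 libraries of both cell types lay close together.

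*DES* (gene 100010017, chromosome 7), which encodes the muscle intermediate filament protein desmin, had an NRC of 4213 in LSD1-P25. The next levels were 883 (FD2M1 neoSF), 769 (LSD1-P15), 563 (FD2M1-P15), 315 (FD2M1-P25) and 296 (LSD1 neoSF). Except for LSD1-P25, which stood 4.77-fold above FD2M1 neoSF, the neoSF and monoiPSC libraries were intermingled. *ACTC1* (gene 100026925, chromosome 1), the cardiac alpha actin that embryonic skeletal muscle also uses, differed from the other genes in that the neoSFs had the most. The neoSFs had an NRC of 16344 (FD2M1) and 21468 (LSD1), and the monoiPSCs had 6418 (LSD1-P25), 1391 (FD2M1-P15), 1131 (LSD1-P15) and 630.4 (FD2M1-P25). LSD1-P25 was 4.61-fold above the next monoiPSC library and 3.35-fold below LSD1 neoSF. The coding sequences of *ACTA1* and *ACTC1* are closely alike, and reads that could belong to either may have been split or dropped, so their counts are less certain than those of the other genes.

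**Figure D1:**
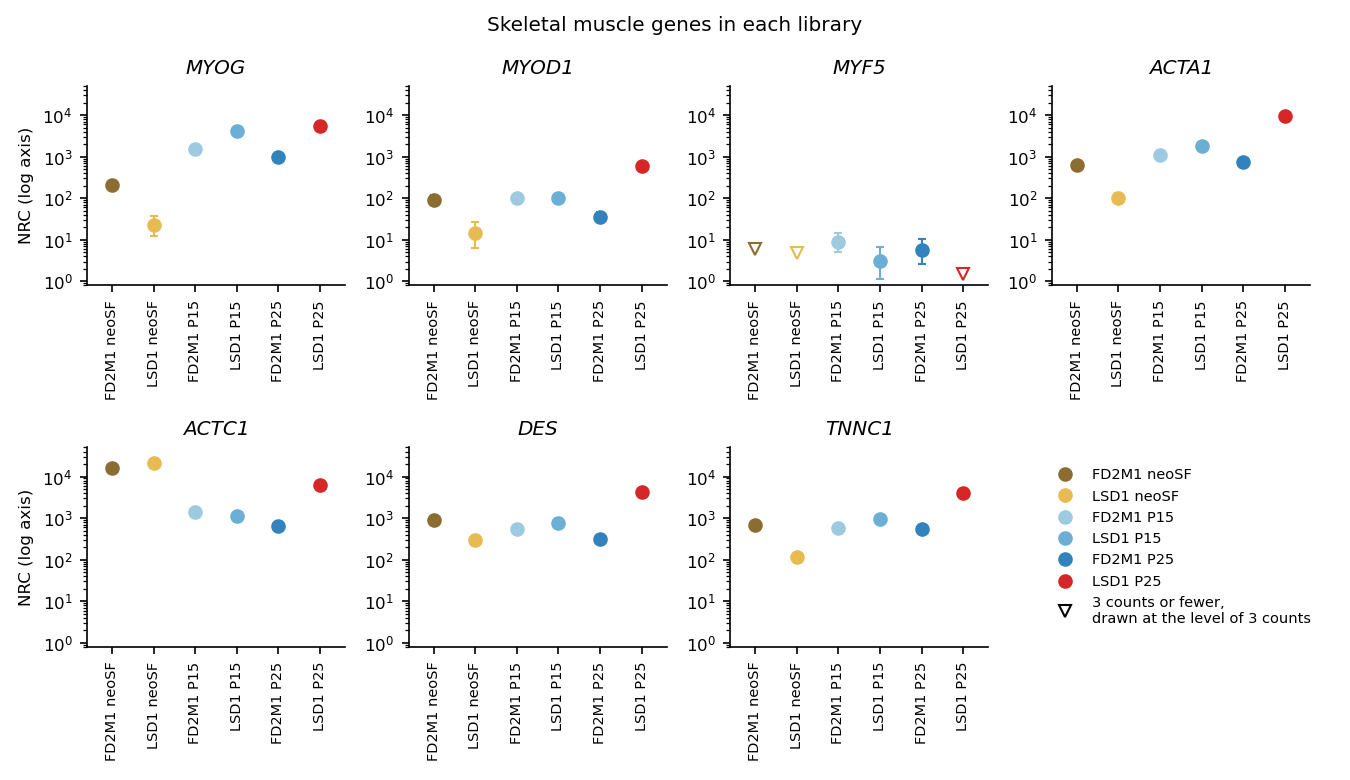
NRC on a log axis (vertical) of the 7 genes in the 6 libraries (horizontal), with 95% Poisson counting intervals as bars, which are often smaller than the points; libraries with 3 counts or fewer are drawn as open triangles at the level of 3 counts. LSD1-P25 (red) was the highest monoiPSC library for 6 genes, from 591 for *MYOD1* to 9645 for *ACTA1*, and *MYF5* stayed at 16 counts or fewer.

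Leaving out *MYF5*, whose NRC never reached 20, 5 of 6 genes were at least 4-fold higher in LSD1-P25 than in each other monoiPSC library, by 4.21-fold to 5.73-fold. The same was true of 0.620% of the 13543 genes at that level, among which these 5 ranked between 24 and 68. These genes were chosen for this difference, so the count is only a description. Against the higher neoSF library, LSD1-P25 was 27.0-fold higher for *MYOG*, 15.5-fold for *ACTA1*, 6.43-fold for *MYOD1*, 6.01-fold for *TNNC1* and 4.77-fold for *DES*.

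The same ratio was taken for other muscle genes, from 7 lists by function. Without the 7 selected genes, 47 of 80 listed genes were at least 2-fold above each other monoiPSC library, against 3.06% of all genes, and 24 were at least 4-fold above. Of these 47 and 24 genes, 5 and 1 reached an NRC of 20 only in LSD1-P25, as did 94 of 414 and 17 of 84 among all genes. In the thin filament list 8 of 12 genes passed 4-fold, among them *TNNC2*, the fast troponin C (8.20-fold, NRC 806 against 48.9 to 98.3), the tropomyosin *TPM2* (5.62-fold) and the filament nucleator *LMOD3* (5.47-fold). *TPM1* was only 1.29-fold above. In the thick filament list 5 of 10 did, among them the myosin-binding proteins *MYBPH* (7.99-fold, NRC 786 against 45.6 to 98.3) and *MYBPC1* (7.71-fold), and the fast myosin light chain *MYLPF* (7.40-fold, NRC 5175 against 361 to 699). Across the titin, Z disc and desmin list it was 8 of 20, including *CSRP3* (6.73-fold, NRC 110 against 3.37 to 16.3) and *MYOT* (5.92-fold). Both encode proteins of the Z disc. The median ratio was 3.99 over the 3 sarcomere lists together and 0.874 over all genes.

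Of 18 genes of excitation and calcium release that reached an NRC of 20, 14 were at least 2-fold and 4 at least 4-fold above each other monoiPSC library, and the median ratio was 2.56. *SLN*, which encodes the calcium pump inhibitor sarcolipin, had the largest ratio of the 7 lists at 11.5-fold, with an NRC of 1273 in LSD1-P25, 110.4 in LSD1-P15, and 73.0 and 69.7 in FD2M1. The acetylcholine receptor subunits *CHRNG* and *CHRND* were 3.02-fold and 2.13-fold above, and the calcium pump *ATP2A1* was 3.23-fold above. Of the 5 metabolic genes, 1 passed 4-fold, the muscle phosphoglycerate mutase *PGAM2* (5.56-fold).

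Of 12 regulators, only *MYOD1* passed 4-fold, 2 passed 2-fold, and the median ratio was 1.10. *MYMK*, which encodes the fusion protein myomaker and was named after its values were seen, was the other at 2.50-fold (NRC 503 against 54.3 to 201). *PAX3*, a factor of muscle progenitors, was lower in LSD1-P25 than in LSD1-P15, with an NRC of 102 against 307, and 167 and 89.7 in FD2M1-P15 and FD2M1-P25. In the dystrophin complex list 2 of 9 passed 4-fold, among them the caveolin *CAV3* (4.57-fold), and the median was 1.02.

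**Figure D2:**
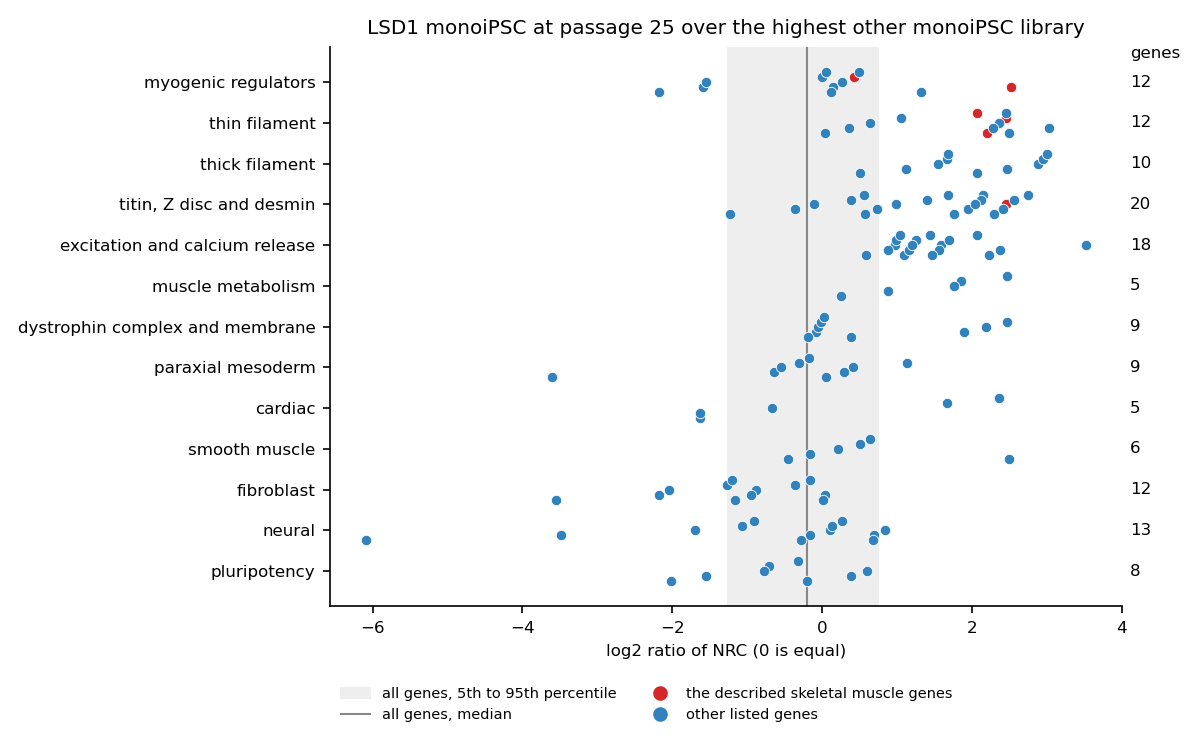
Ratio of NRC (log2, horizontal) of LSD1-P25 to the highest of the other 3 monoiPSC libraries, 1 point per gene with an NRC of at least 20 in a monoiPSC library, by list (vertical, number of genes at the right); the grey band holds the middle 90% of 13543 genes. Most thin filament, thick filament and excitation genes lie right of the band, whose upper edge is a 1.67-fold ratio, while fibroblast, neural and pluripotency genes do not, apart from 1 neural gene at 1.78-fold.

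Lists of other cell types were read beside these. None of the 12 fibroblast, 13 neural, 8 pluripotency or 9 paraxial mesoderm genes that reached an NRC of 20 in a monoiPSC library was 4-fold higher in LSD1-P25 than in each of the other 3. Summed neural NRC was 21075 in LSD1-P25 against 9644 to 16907 in the others, while the median ratio of the neural list was 0.894. *NES* alone had an NRC of 10431 in LSD1-P25 against 4225 to 6455, so the sum rested largely on this gene. The paraxial mesoderm sum was 2341 against 1209 to 2028. Of the cardiac list 1 of 5 passed 4-fold, *TNNT2* (5.15-fold), which the thin filament list also holds. The cardiac sum was 3071 against 744 to 1290. *TNNT2* alone had an NRC of 2431 against 175 to 472, so this sum rested largely on it. The cardiac genes *GATA4* and *MYL7* were at 0 in all 6 libraries, below the floor of 3 counts used for ratios (an NRC of 1.55 to 5.85). A count of 0 leaves low levels open, up to an NRC of 7.20 in FD2M1 neoSF by its 95% counting limit. *NKX2-5* was at 0 in LSD1-P25. Other cardiac genes were present there. *MYH6* had 297 against 54.2 to 93.0 in the other monoiPSCs, and *NPPA* had 9.79 against 0. *HAND2* (214 against 288 to 664), *RYR2* (58.4 against 45.8 to 93.3) and *ISL1* (55.6 against 55.8 to 171) were not highest in LSD1-P25. In the smooth muscle list 1 of 6 passed, *TPM2*, which is shared with the thin filament list. The smooth muscle sum was 3269 against 1545 to 2339. *TPM2* alone had an NRC of 1380 against 102 to 245, so the excess in this sum rested on it. *ACTA2* was at 0 in LSD1-P25 and at most 5.02 in the other monoiPSCs. *MYH11* (117 against 39.6 to 101), *CNN1* (54.8 against 10.6 to 38.7) and *LMOD1* (136 against 68.6 to 87.5) were highest in LSD1-P25. *TAGLN* (ratio 0.898) and *CALD1* (ratio 0.730) were not. The part of these cells in the muscle gene levels was not tested.

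The passages differed in opposite directions in the strains. The 6 selected genes other than *MYF5* were higher at passage 25 than at passage 15 in LSD1 and lower in FD2M1, as were 21.8% of all genes. The LSD1-P25 to LSD1-P15 ratio was 5.95-fold for *MYOD1*, 5.68-fold for *ACTC1*, 5.48-fold for *DES*, 5.46-fold for *ACTA1*, 4.21-fold for *TNNC1* and 1.34-fold for *MYOG*. In FD2M1, passage 15 was 2.94-fold above passage 25 for *MYOD1*, 2.21-fold for *ACTC1*, 1.79-fold for *DES*, 1.55-fold for *MYOG*, 1.48-fold for *ACTA1* and 1.05-fold for *TNNC1*, whose counting intervals overlapped. Of the other 80 listed muscle genes, 52 showed the same opposite signs, and 73 were higher at passage 25 in LSD1, beside 6995 of all 13543 genes. With 1 library per strain and passage there was no replicate check of either change.

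**Figure D3:**
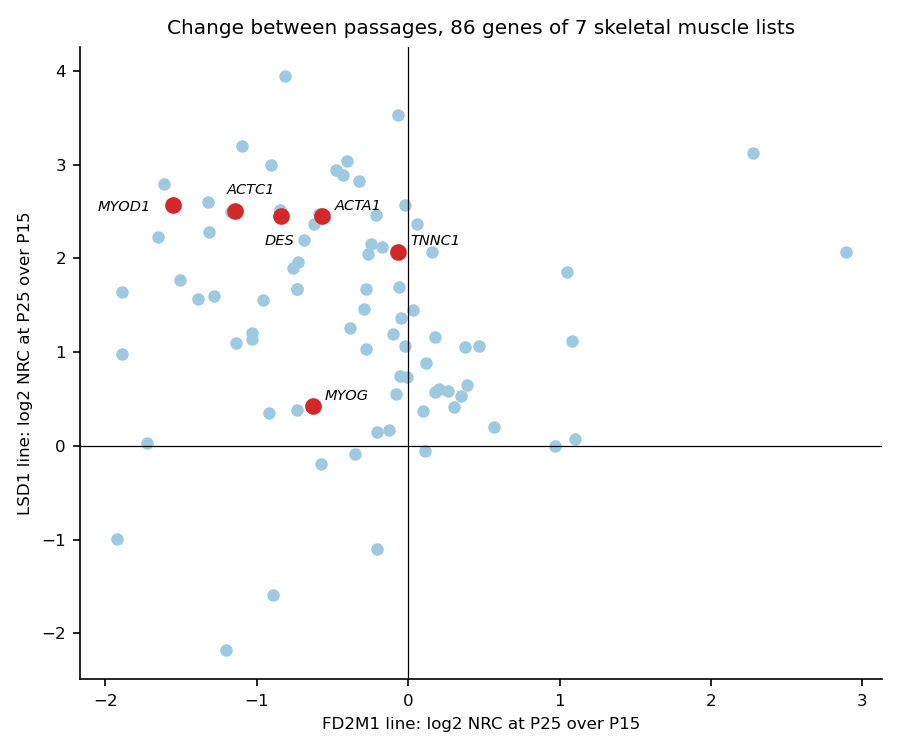
Log2 ratio of NRC at passage 25 to passage 15 in FD2M1 (horizontal) and LSD1 (vertical) monoiPSCs, 1 point per gene of the 7 skeletal muscle lists with an NRC of at least 20 in a monoiPSC library (86 genes). The 6 selected genes (red) lie in the upper left field with 52 others; the LSD1 ratio of *MYOG* (0.42) is far below those of the other 5 (2.07 to 2.57).

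Whether the muscle genes differed between monoiPSCs and neoSFs apart from LSD1-P25 was tested on the other 3 monoiPSC libraries against the 2 neoSF libraries with edgeR's quasi-likelihood test. A gene was differentially expressed (DE) at a p of at most 0.05, adjusted over all genes tested, and a fold change of at least 2. These 3 monoiPSC and 2 neoSF libraries were the ones that LSD1-P25 was compared with in the choice of genes. Only LSD1-P25 was left out of this fit, so the p-values of the selected genes are not independent of that choice. Of 6 selected genes that passed the filter on low values, 1 was DE and higher in monoiPSCs, *MYOG*, beside 23.6% of 13125 genes tested, and 1 was DE and lower, *ACTC1*, beside 21.6%. *MYOG* had an NRC of 2216 ± 1684 (SD, n = 3) in monoiPSCs and 114 ± 129.8 (SD, n = 2) in neoSFs. Its log2 fold change was 4.41 (SE 1.07, adjusted p = 0.013), with each of the 3 libraries above both neoSFs. *ACTC1* had 1051 ± 387 (SD, n = 3) and 18906 ± 3624 (SD, n = 2), a log2 fold change of -4.09 (SE 0.36, adjusted p = 0.00028), and no overlap between the groups.

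The other 4 genes were not called. *ACTA1* had an NRC of 1212 ± 512 (SD, n = 3) in monoiPSCs and 362 ± 366 (SD, n = 2) in neoSFs, and its log2 fold change of 1.84 (SE 0.75) missed the threshold with edgeR (adjusted p = 0.074) and passed with DESeq2 (adjusted p = 0.017). *TNNC1* (log2 fold change 0.90, SE 0.69), *MYOD1* (0.68, SE 0.83) and *DES* (-0.02, SE 0.54) had overlapping groups. The call rested on the FD2M1 neoSFs for 3 of them: without that library, where the lone neoSF library is assumed to vary like the others, *ACTA1*, *TNNC1* and *MYOD1* were also DE, with log2 fold changes of 3.65, 2.69 and 2.56 (adjusted p = 0.0034, 0.0043 and 0.049). *MYF5* had too few counts for the test. With all 4 monoiPSC libraries, as the study compared them, the log2 fold changes were 4.88 for *MYOG*, 3.31 for *ACTA1*, 2.09 for *MYOD1*, 2.06 for *TNNC1*, 1.42 for *DES* and -2.89 for *ACTC1*. In that fit 1 of the 6 was DE and higher, beside 24.3% of genes, and 1 was DE and lower, beside 21.6%, and these counts include the library that chose the genes.

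The counts of the muscle lists stand beside the 23.6% of all tested genes that were higher and the 21.6% that were lower. They depend on the filter, since a gene that reached an NRC of 20 throughout only the group where it is high was called more often. Of 1326 tested genes that passed only through the monoiPSCs, 1116 were DE and higher. In the list of excitation and calcium release 8 of 16 tested genes were DE and higher in the 3 monoiPSC libraries and 2 were DE and lower. Of the 8 higher genes, 6 passed the filter only through the monoiPSCs, and of the 8 tested genes that passed it in both groups 2 were higher and 2 lower. The higher genes included the acetylcholine receptor subunits *CHRND* (5.83, SE 0.96, adjusted p = 0.0027) and *CHRNG* (4.31, SE 1.02, adjusted p = 0.011), the receptor-clustering genes *RAPSN* (4.69) and *MUSK* (3.71), and *ATP2A1* (4.18). *CHRND* had an NRC of 323 and 147 in FD2M1-P15 and FD2M1-P25, 553 in LSD1-P15, 11.5 in FD2M1 neoSF and 1 count in LSD1 neoSF. The lower pair were the junctophilins *JPH2* (-5.07) and *JPH1* (-1.87), which hold the calcium store to the surface membrane. Without the FD2M1 neoSF library 13 of this list were DE and higher, and without the LSD1 neoSF library 8 were.

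Of 11 tested regulators, 4 were DE and higher, namely *PAX3* (4.48), *MYOG*, *EYA2* (3.15) and *MEF2C* (1.37). Of these 4, 1 passed the filter only through the monoiPSCs. A further 2 regulators were DE and lower, *MEF2D* (-2.43) and *MEF2A* (-1.52). *PAX3* and *EYA2* act upstream of the muscle factors, and the *MEF2* genes encode their partners. The thin filament list had 0 of 12 genes DE and higher with edgeR, 2 higher at an unadjusted p under 0.05 and 1 with DESeq2, and 2 DE and lower, *TPM1* (-6.00) and *ACTC1*. The thick filament list had 1 of 7 higher, *MYH6* (5.52), which the cardiac list also holds and which passed the filter only through the monoiPSCs. It had 2 lower, *MYOM1* (-4.64) and *MYL4* (-2.88). In the titin, Z disc and desmin list 5 of 18 were higher and 4 lower, close to the 23.6% and 21.6% of all tested genes. The higher genes were *SMYD1* (3.39), *ACTN3* (3.16), *UNC45B* (2.32), *KLHL41* (2.29) and *TCAP* (1.68), and 4 of these 5 passed the filter only through the monoiPSCs. The lower genes were *SYNM* (-5.81), *CRYAB* (-4.36), *MYOZ3* (-2.27) and *FLNC* (-1.79). *SMYD1* and *UNC45B* encode factors for the folding and assembly of myosin. Over the sarcomere lists as a whole 6 of 37 genes were higher, of which 5 passed only through the monoiPSCs, and 8 were lower. Without the FD2M1 neoSF library 17 were higher and 8 lower, and without the LSD1 neoSF library 7 were higher and 14 lower.

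The dystrophin complex list had 3 of 8 genes higher, *CDH15* (2.39), *DMD* (1.76) and *DTNA* (1.36), and 5 lower, among them the sarcoglycans *SGCA* (-5.01), *SGCD* (-4.25) and *SGCB* (-2.84), and *DYSF* (-4.61), and 3 of the 5 lower genes passed the filter only through the neoSFs. With strain as a block the number of higher genes was 2 in the thick filament, 4 in the Z disc and 2 in the dystrophin complex list. *CDH15*, a cadherin of myoblasts and satellite cells, had an NRC of 643 and 386 in FD2M1-P15 and FD2M1-P25 and 751 in LSD1-P15, against 204 in FD2M1 and 39.5 in LSD1 neoSFs. The enolase *ENO3* was the only DE gene of 3 tested in the metabolic list (3.52). The lists of other cell types stand beside the same shares of all tested genes, 23.6% higher and 21.6% lower. In them, 12 of 13 tested neural genes and 8 of 8 pluripotency genes were higher. Lower were 12 of 13 fibroblast and 6 of 8 smooth muscle genes. The paraxial mesoderm list had 3 of 9 higher, among them *DLL3* (11.48), and 4 lower, among them *PAX1* (-4.55). Of the higher genes, 9 neural, 7 pluripotency and 3 paraxial mesoderm genes passed the filter only through the monoiPSCs. Of the lower genes, 3 smooth muscle genes, 1 fibroblast gene and 1 paraxial mesoderm gene passed it only through the neoSFs. Of 6 cardiac genes 3 were higher, *MYH6*, *RYR2* (5.40) and *ISL1* (3.48), and *NKX2-5* was lower (-8.75). The 3 higher genes passed the filter only through the monoiPSCs, and *NKX2-5* only through the neoSFs.

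**Figure D4:**
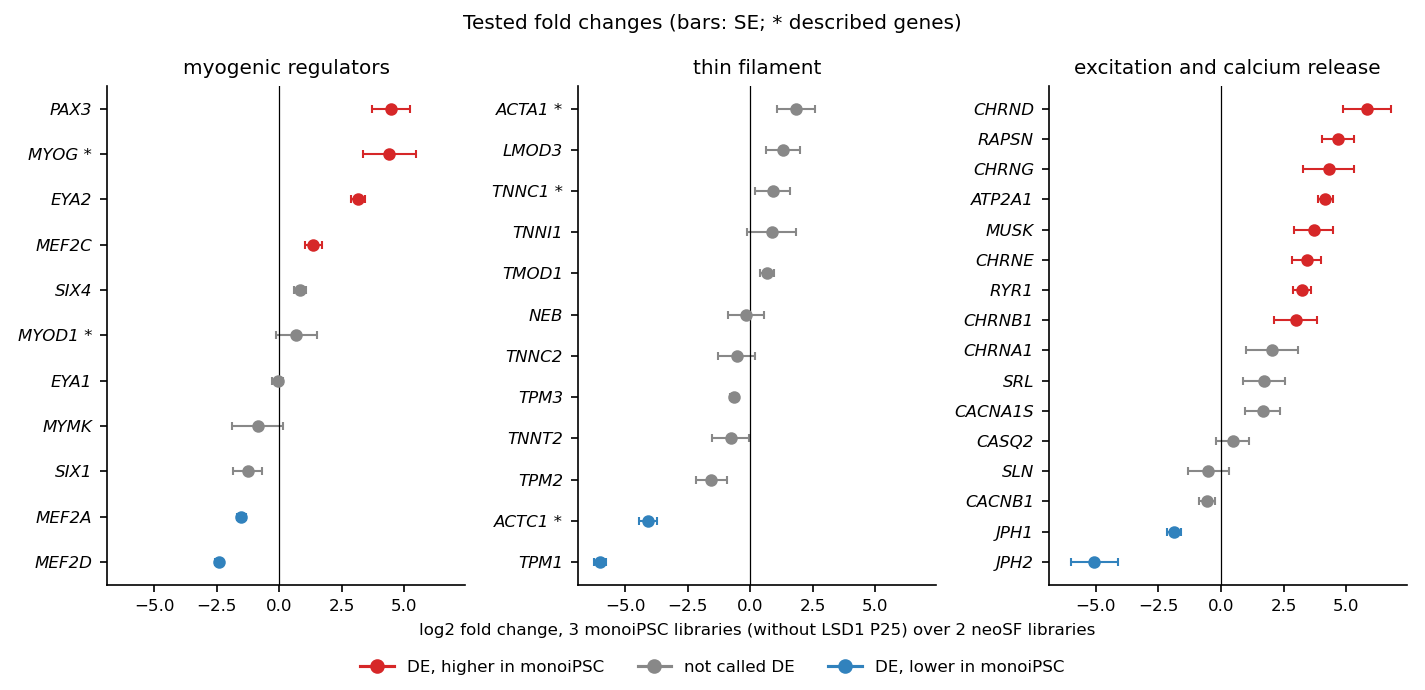
Log2 fold change with SE bars (horizontal) of 3 monoiPSC libraries, without LSD1-P25, over 2 neoSF libraries, for the tested genes (vertical) of 3 lists; red points are DE and higher, blue points DE and lower, and grey points not called. *MYOG* is among the 4 red regulators, the thin filament genes are grey apart from *ACTC1* and *TPM1*, and 8 of 16 excitation genes are red.

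The neoSF libraries also differed from each other in the muscle genes. FD2M1 neoSFs had 9.28-fold more *MYOG* than LSD1 neoSFs, 6.46-fold more *MYOD1*, 5.99-fold more *ACTA1*, 5.86-fold more *TNNC1* and 2.98-fold more *DES*, while *ACTC1* was 1.31-fold higher in LSD1. Thus 4 of the 6 selected genes that reached an NRC of 20 in a neoSF library were at least 4-fold higher in FD2M1, beside 3.60% of 12669 genes. The same held for 31 of the other 70 listed muscle genes, of which 15 reached an NRC of 20 only in FD2M1, with a median ratio of 2.77 beside 1.02 over all genes. *MYBPH* was 27.5-fold higher in FD2M1 (NRC 166 against 6.03), *MYMK* 14.9-fold (508 against 34.1) and *MYLPF* 10.9-fold (1011 against 92.7). Of the fibroblast and smooth muscle genes, 0 of 13 and 0 of 8 passed 4-fold, and the smooth muscle median was 0.444. The paraxial mesoderm list had 4 of 7, among them *PAX1* (1879 against 131) and *MEOX2* (1198 against 256). With 1 library per strain, strain, pup and culture cannot be told apart.

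**Figure D5:**
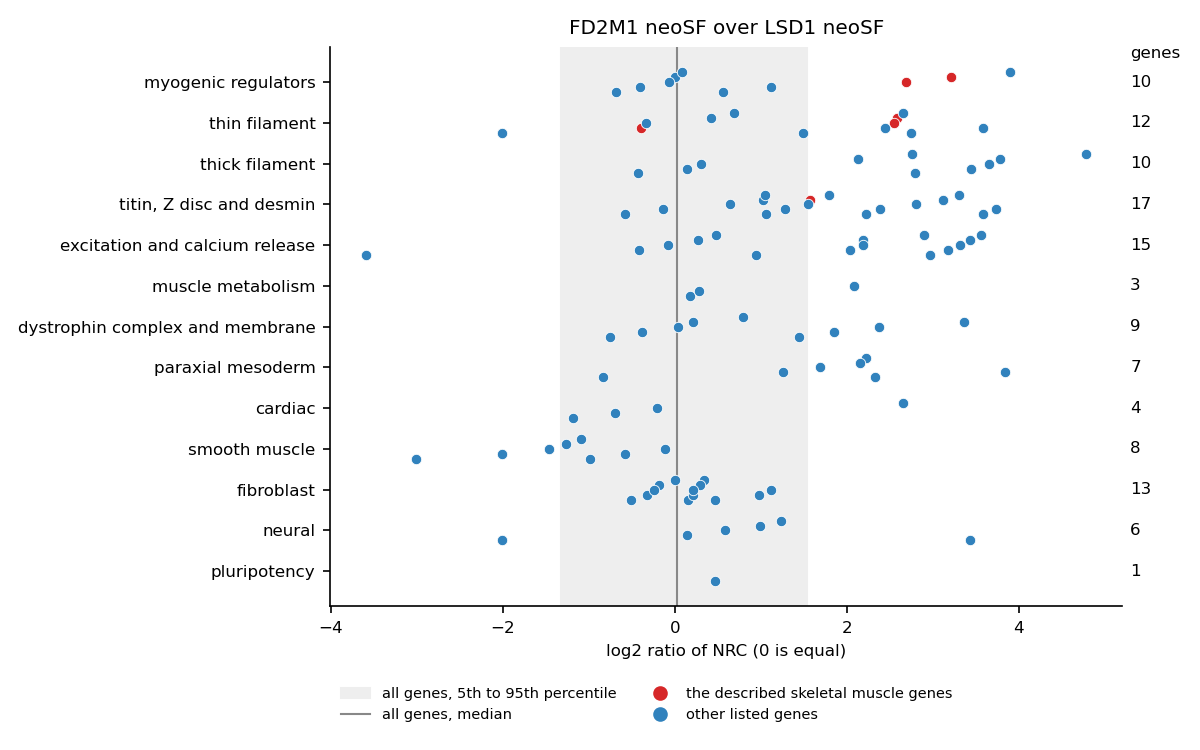
Ratio of NRC (log2, horizontal) of FD2M1 to LSD1 neoSFs, 1 point per gene with an NRC of at least 20 in a neoSF library, by list (vertical, number of genes at the right); the grey band holds the middle 90% of 12669 genes, up to a 2.90-fold ratio. *MYOG*, *MYOD1*, *ACTA1*, *TNNC1* and *DES* (red) lie right of the band and *ACTC1* within it, and the fibroblast genes lie inside the band.

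For most listed muscle genes, the strain with the higher level was thus FD2M1 in the neoSFs and LSD1 in the monoiPSCs at passage 25. The summed NRC of the 7 lists went the other way in the neoSFs, at 174944 in FD2M1 and 190335 in LSD1. Over 70 listed muscle genes, the log2 ratio of FD2M1 to LSD1 in neoSFs and that of passage 25 to passage 15 in LSD1 monoiPSCs had a Pearson r of 0.34 and a Spearman rho of 0.38. This is a description across genes, which are not independent, and low counts add noise to both ratios.

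Genes outside the lists were named by rule. Among genes with a symbol other than a LOC number and an NRC of at least 100 in LSD1-P25, the 10 with the largest ratio of LSD1-P25 to the highest of the other 5 libraries were *MYBPC1*, *ETV2*, *SMTNL1*, *CSRP3*, *FOXO6*, *TAL1*, *GUCA1A*, *MYOD1*, *SLN* and *PDLIM3*, between 7.71-fold and 5.53-fold. *ETV2* and *TAL1*, transcription factors of the blood and endothelial lineage, had an NRC of 965 and 170.0 in LSD1-P25, with 138 and 29.5 in LSD1-P15 and at most 124 and 8.79 in FD2M1 monoiPSCs. *SMTNL1*, a smoothelin-like muscle protein, had 119 against 1.38 to 7.41 in the other monoiPSCs. An unnamed gene beside the skeletal myosin heavy chain genes *MYH1*, *MYH2* and *MYH4* in the RefSeq gene order, LOC100027388, had 4967 in LSD1-P25, 960.2 in LSD1-P15, and 949 in FD2M1 and 142 in LSD1 neoSFs. LOC100027290, which the rule leaves out, had a larger ratio than these 10 genes at 9.38-fold, with an NRC of 575 in LSD1-P25 and at most 61.3 elsewhere. Both were singled out after their values were seen. The named myosin heavy chains *MYH1* and *MYH4* were at an NRC of 2.06 or less in all monoiPSC libraries. *MYH2* was at 16.5 in LSD1-P25, 12.6 in LSD1-P15 and at most 1.12 in the FD2M1 monoiPSCs. The neoSFs had more *MYH2* in FD2M1 (166) than in LSD1 (13.2), as for *MYH1* (32.9 and 3.30) and *MYH4* (2.28 and 0.528). The heavy chains *MYH6* and *MYH7*, best known from heart and slow muscle, had 297 and 120 in LSD1-P25 against at most 93.0 and 55.2 in the other monoiPSCs.

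Among genes with a symbol other than a LOC number and an NRC of at least 100 in any library, the 10 whose log2 NRC followed *MYOG* most closely over the 6 libraries were *HEY2*, *DLL1*, *GPR37*, *CHRNG*, *SNAP91*, *SEMA6C*, *MED4*, *SAC3D1*, *CDH15* and *CHRND*, with Pearson r between 0.988 and 0.993. The libraries share strains and sequencing runs, and r is given without a test. *HEY2* and *DLL1*, genes of the Notch pathway, had ratios of LSD1-P25 to the next monoiPSC library of 1.02 and 1.14, near the 1.34 of *MYOG*. Among the selected genes, r with *MYOG* was 0.92 for *ACTA1*, 0.86 for *TNNC1*, 0.79 for *MYOD1*, 0.61 for *DES*, 0.32 for *MYF5* and -0.66 for *ACTC1*.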

How the data were processed

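RNA of 2 neoSF and 4 monoiPSC libraries was analysed at the level of genes. Using StrandNGS v4, the authors mapped reads to the MonDom5 genome and RefSeq transcripts, filtered them by quality and mapping, and counted them per gene. They deposited a table of counts and a table of log2 values that had been scaled by the DESeq method. The deposited counts were estimated counts, since 85.3% of the values above 0 were not whole within 0.001, and were rounded. NRC is 2 raised to the deposited log2 value, which equals the count times 1 factor per library (0.515 to 1.95). How the mates of a read pair were counted is not given in the sources used here. The RefSeq table is of another assembly and served for names only, with 25831 identifiers matched.

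A gene entered the test when its NRC reached 20 in every library of a group. Tests were made with edgeR 4.0.16 (TMM, glmQLFit and glmQLFTest, R 4.3.3), and a gene was DE when its p, adjusted by Benjamini-Hochberg over all tested genes, did not exceed 0.05 and its fold change reached 2. DESeq2 1.42.0, limma 3.58.1 on the log2 values, RLE scaling, no filter, a strain block and leaving out each library were the alternatives. The neoSFs and monoiPSCs of a strain share their origin, so strain pairs them, but the study's test has no block and same-strain deviations from the group means correlated by only -0.01 to 0.08 over genes. On simulated counts for the fit without LSD1-P25, edgeR recovered 177 of 200 genes changed 4-fold and called 9 unchanged genes among 13125. Ratios used NRC with libraries under 3 counts set to 3 counts. Intervals are exact 95% Poisson limits and cover counting error only.

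The members and lists were chosen with earlier results of these data known. Named genes are the selected genes, at most 6 per list that were DE in that fit or at least 4-fold higher in LSD1-P25 than in each other monoiPSC library, the 10 genes with the largest ratio of LSD1-P25 to the other 5 libraries, and the 10 most correlated with *MYOG*, the last 2 sets among genes with a symbol other than a LOC number and an NRC of at least 100 (in LSD1-P25 or in any library). Genes given to complete a count of 5 or fewer, *MYMK*, LOC100027388, LOC100027290 and the myosin genes beside it were named after their values were seen. The same holds for *NES*, *HAND2*, *NPPA* and *MYH11*. Of the lists, 100 of 121 skeletal muscle genes had values. A gene of the dystrophin complex list was counted but is not reported here by name. Gene lengths were not used.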

Additional observations from a re-analysis of the deposited data

Results flagged for a closer look

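In groups of 4 libraries a single value is marked when its gap to the nearest other library, divided by the whole range of the group, exceeds 0.829 on NRC. Chance marks about 1 in 20 groups, but only where genes are not chosen on these values. Many of the named genes were chosen for a large ratio of LSD1-P25 to the other libraries. Marks with LSD1-P25 high were thus largely set by that choice, and their count cannot be read against the chance rate. Among 83 named genes that reached an NRC of 20 in a monoiPSC library, 31 were marked, of which 30 had LSD1-P25 as the high library. The selected genes marked were *MYOD1* (0.878), *ACTA1* (0.886), *ACTC1* (0.869), *DES* (0.884) and *TNNC1* (0.881), and *MYOG* was not. Of the thin filament list, *TNNC2* (0.935), *TPM2* (0.888), *LMOD3* (0.951) and *TNNT2* (0.868) were marked. Of the thick filament list these were *MYBPH* (0.929), *MYBPC1* (0.905), *MYLPF* (0.93), *MYL4* (0.851), *MYH6* (0.84) and *MYOM1* (0.84). The Z disc genes *CSRP3* (0.878) and *MYOT* (0.923), the calcium genes *JPH2* (0.936), *ATP2A1* (0.900) and *SLN* (0.966), the sarcoglycan *SGCA* (0.857), the metabolic gene *PGAM2* (0.926) and the regulator *MEF2D* (0.886) were also marked with LSD1-P25 high. Outside the muscle lists, *ETV2* (0.873), *SMTNL1* (0.949), *FOXO6* (0.972), *TAL1* (0.849), *GUCA1A* (0.87) and *PDLIM3* (0.912) and the pluripotency gene *POU5F1* (0.878) were. For *ISL1* (0.951) the high library was FD2M1-P15.

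The selected genes apart from *MYF5* were higher at passage 25 than at passage 15 in LSD1 and lower in FD2M1. The log2 change between passages in LSD1 minus that in FD2M1 was 4.13 for *MYOD1*, 3.65 for *ACTC1*, 3.29 for *DES*, 3.02 for *ACTA1*, 2.14 for *TNNC1* and 1.06 for *MYOG*. This difference was not tested, because each strain has 1 library per passage.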

How the results depend on the processing

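Without LSD1-P25, *MYOG* was DE and higher and *ACTC1* DE and lower under all 10 alternatives, with log2 fold changes of 3.54 to 6.74 and -4.35 to -3.83. The number of selected genes DE and higher was 2 with DESeq2, which added *ACTA1*, and 1 to 4 when libraries were left out in turn. The 4 came without FD2M1 neoSF, which left the neoSFs with a lone library. The log2 fold change of *MYOD1* was -0.10 without LSD1 neoSF and 2.56 without FD2M1 neoSF. That of *DES*, -0.02 in the test, was 0.0078 with limma, 0.0024 with strain as the replicate block, and -0.58 to 0.98 when libraries were left out, without a call. Strain as the replicate block changed no call of a selected gene. With all 4 monoiPSC libraries, 2 were DE and higher with DESeq2 and 1 to 2 when libraries were left out, the added gene being *ACTA1*, and 0 to 1 were DE and lower, since *ACTC1* missed the threshold without LSD1 neoSF (adjusted p = 0.060). The *DES* change there ran from -0.015 without LSD1-P25 to 2.41 without FD2M1 neoSF. The causes were not tested. The count of 5 genes at least 4-fold higher in LSD1-P25 was the same under its 7 alternatives. The 1.34-fold excess of *MYOG* rested on LSD1-P15: without it, the log2 ratio was 1.86. Depth limits *MYF5*, whose neighbouring levels cannot be ordered, although its counting intervals in FD2M1-P15 (NRC 5.13 to 14.6) and LSD1-P25 (0.125 to 3.72) were apart.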
